A study of Mus musculus with 12 samples.

Results

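Rectum from mice with both Cre drivers was compared with rectum from mice with the Lgr5 driver alone, groups that by label differ in the Cdx2 driver. Libraries were taken by their titles: 2 of Lgr5-Cdx2-Apc and 4 of Lgr5-Apc, together 6 of the 12 RNA-seq libraries of the series. Genes with at least 1 FPKM (fragments counted, scaled to transcript length and to the library's mapped fragments) in at least 2 of these 6 libraries were kept, which left 16349 of 27785. The Lgr5-Apc mice are labelled Lgr5creER;APC flox and the Lgr5-Cdx2-Apc mice Lgr5creER;CDX2creER;APC flox, so both groups share the Lgr5 driver, floxed Apc and tamoxifen, injected at 25 mg/kg on 5 days. CreER is a recombinase that enters the nucleus only with tamoxifen. The labels used here do not state the Cre line's construction, the copies of the floxed allele, age, sex, the interval from injection to dissection, or whether samples came from separate animals. The p-values therefore measure the spread between these samples, which may be technical. The other 6 libraries, 3 of Cdx2-Apc and 3 of control, enter only the estimate of spread and the ranges quoted as "the other 10 libraries". The Cdx2-Apc mice are labelled CDX2creER;APC flox, and their tamoxifen and that of control were the same. Control samples are titled WT, but their genotype field names CDX2creER;APC flox with WT in brackets, so their genotype is not certain.

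Apc is the scaffold of the complex that marks beta-catenin for destruction, and its loss leaves Wnt target genes on without a ligand. Lgr5 marks the dividing stem cells at the base of intestinal crypts. Cdx2 is a homeobox factor of the intestinal epithelium from the midgut to the rectum. The rectum is lined by columnar epithelium with colonocytes and goblet cells, lies within a smooth muscle coat, and meets stratified squamous epithelium, hair-bearing skin and striated sphincter muscle at its lower end.

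With both drivers, genes of smooth muscle, columnar epithelium and mucosal defence were among those lower than with the Lgr5 driver alone. Hair keratins, Skint genes and genes of T cells and antigen presentation were among those higher. How much skin and muscle wall each sample held is not known, so its part cannot be told apart from that of the drivers. The mean log2(FPKM + 1) of basal and suprabasal squamous genes ran from 1.48 to 9.29 within Lgr5-Apc and from 2.7 to 6.92 within control. Of the 16349 genes, limma called 939 higher (5.74%) and 704 lower (4.31%), together 1643, at a Benjamini-Hochberg adjusted p below 0.05. The counts of list members given below are to be read beside these shares of all genes. An unadjusted p below 0.05 was reached by 5079 genes, and the median log2 difference of all genes was 0.05. Both libraries lay above all 4 Lgr5-Apc libraries for 3039 genes (18.6%) and below them for 2498 (15.3%). Of the 939 higher genes 936 showed no overlap and 907 lay above all of the other 10 libraries. Of the 704 lower genes 663 showed no overlap and 628 lay below the other 10. The filter admitted 429 genes only through the 2 Lgr5-Cdx2-Apc libraries, and 321 of the higher genes are among them. These had to be higher, so the count of higher genes is read with that in mind.

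**Figure D1:**
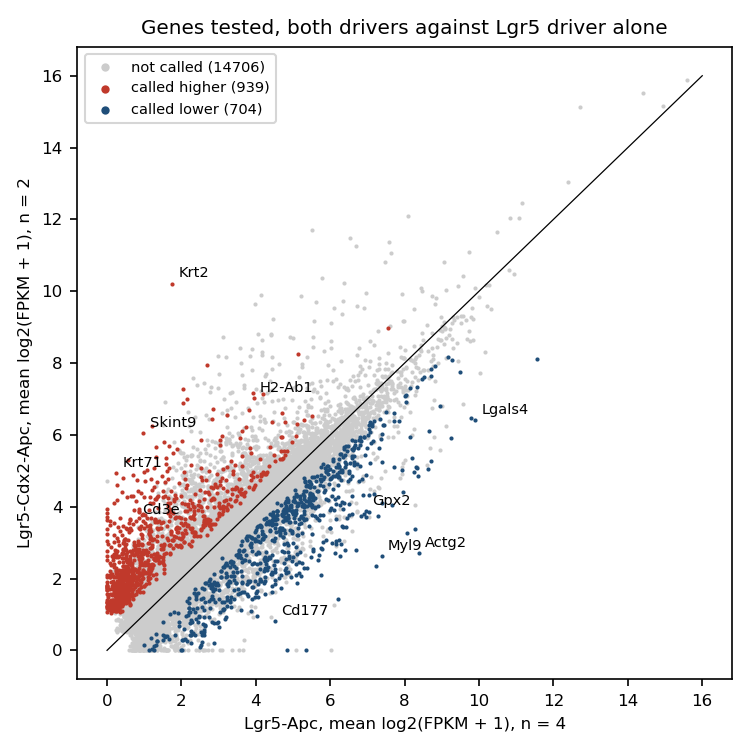
Mean log2(FPKM + 1) of the 2 Lgr5-Cdx2-Apc libraries (vertical) against that of the 4 Lgr5-Apc libraries (horizontal) for the 16349 genes tested, with genes called higher in red, genes called lower in blue and the line of equal values. The 939 higher genes reach to the left edge, where Lgr5-Apc is near 0, and among the genes called lower Actg2 lies farthest below the line.

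The call counts rested strongly on single libraries. The 1643 calls became 4640 without Lgr5-Apc replicate 2 and 320 without Lgr5-Cdx2-Apc replicate 2. They became 639 without Lgr5-Cdx2-Apc replicate 1, 754 without Lgr5-Apc replicate 1, 591 without Lgr5-Apc replicate 3, 1050 without Cdx2-Apc replicate 2 and 961 without Cdx2-Apc replicate 3. A fit of the 6 libraries alone called 65 genes, 59 higher and 6 lower. All 939 higher and all 704 lower genes were also called without Lgr5-Apc replicate 2. For most of them that library was the nearest of its group to the Lgr5-Cdx2-Apc libraries, so leaving it out tests these calls little.

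Of the 4 Lgr5-Apc libraries, replicate 2 lay nearest the Lgr5-Cdx2-Apc libraries, and it was also near Lgr5-Apc replicate 3. The Spearman correlation of replicate 2 across genes was 0.895 and 0.906 with Lgr5-Cdx2-Apc replicates 1 and 2. With Lgr5-Apc replicates 1, 3 and 4 it was 0.798, 0.906 and 0.710. The group was spread, and replicate 4 had 0.88 and 0.814 with replicates 1 and 3. Genes within a library are not independent replicates. Lgr5-Apc replicate 2 was the highest of the 4 Lgr5-Apc libraries for 614 of the 939 higher genes (65.4%, against 38.9% of all genes tested). It was the lowest for 558 of the 704 lower genes (79.3%, against 24.3%). The differences described here were therefore read against each Lgr5-Apc library as well as against the group. Total FPKM of the 6 libraries ran from 455036 to 618990, and 20522 to 22562 genes were above 0. Short RNAs held 33.8% and 31.9% of the total in Lgr5-Cdx2-Apc replicates 1 and 2 and 17.3% to 22.8% in Lgr5-Apc. Their part in the differences was not tested. Depth in reads is unknown, so a gene at 0 is given as listed at 0. Xist was 61.1 to 266 FPKM in the 6 libraries and the 4 Y-linked genes checked were at most 0.0299 FPKM. The mean log2(FPKM + 1) of these 5 genes was 1.2 to 1.61 in the 6 libraries. It was 3.23 to 3.38 in Cdx2-Apc and 2.62, 1.45 and 1.43 in control replicates 1 to 3. The part of sex in the spread and in the ranges of the other 10 libraries was not tested.

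**Figure D2:**
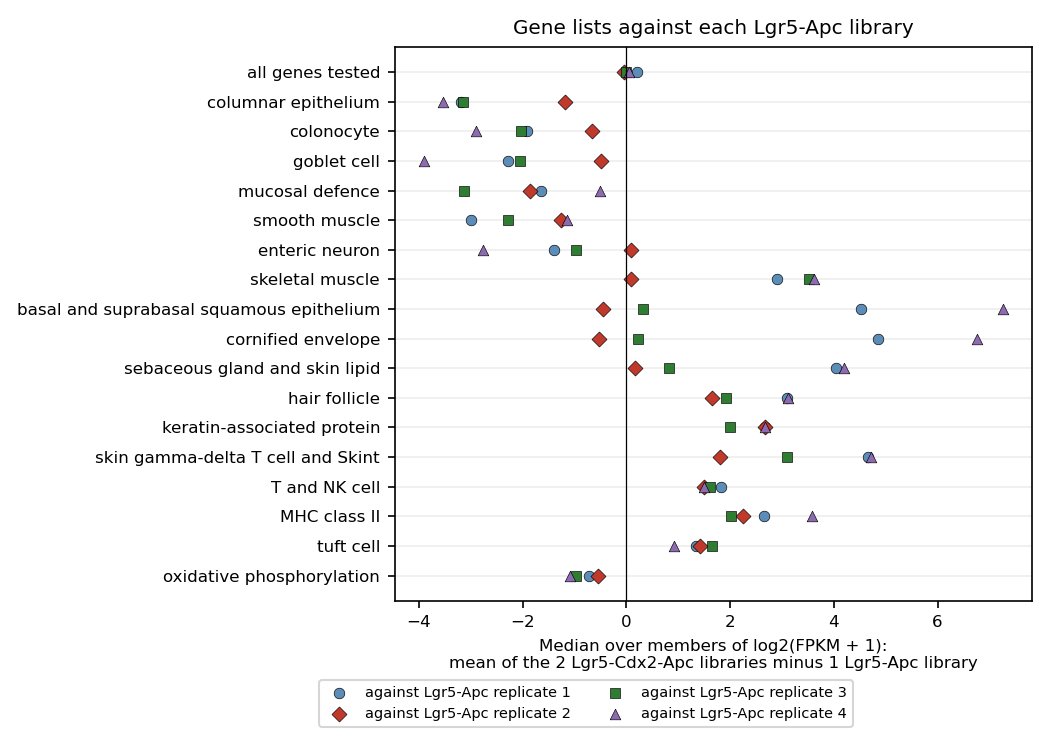
Median over the tested members of each list of the mean log2(FPKM + 1) of the 2 Lgr5-Cdx2-Apc libraries minus that of a single Lgr5-Apc library, with a marker shape for each Lgr5-Apc replicate and all genes tested at the top. Against replicate 2 (red diamonds) the squamous, cornified and skeletal muscle medians were -0.45, -0.53 and 0.08, while smooth muscle stayed at -1.27 and MHC class II at 2.24.

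Neither the targeted gene nor a driver gene was called with all libraries. Apc was 13.5 and 15 FPKM with both drivers and 14.6, 14.1, 14.9 and 18.6 FPKM in Lgr5-Apc replicates 1 to 4, and the ranges overlapped (log2 difference -0.11 ± 0.15 SE; limma adjusted p = 0.623). These values are per gene, so loss of the floxed exons alone cannot be read from them. Lgr5 was 4.48 and 3.77 FPKM against 1.75, 1.30, 1.40 and 4.72 FPKM, so that Lgr5-Apc replicate 4 lay above both Lgr5-Cdx2-Apc libraries (0.75 ± 0.35; adjusted p = 0.176). Without that library Lgr5 was called higher (adjusted p = 0.0274). Cdx2 was 18.5 and 1.44 FPKM against 0.836, 0.248, 0.858 and 151 FPKM. It varied more within each group than between them (0.45 ± 1.73; adjusted p = 0.878), and its log2 difference ran from -1.05 to 2.09 when a single library was left out.

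Among genes called lower, unnamed models and small RNAs left aside, the 6 largest decreases were all of smooth muscle genes. They encode the actin and myosin machine of the gut wall and the proteins that regulate it. Actg2 (ENSMUSG00000059430.14, chromosome 6, 83512905 to 83536265 on GRCm38), the enteric smooth muscle actin, was 8.33 and 3.59 FPKM with both drivers and 742, 145, 552 and 204 FPKM in Lgr5-Apc replicates 1 to 4. Both libraries lay below every Lgr5-Apc library, and Lgr5-Apc replicate 2 was the lowest of its group. The log2 difference was -5.67 ± 0.65 (SE; limma adjusted p = 0.00101), from 411 ± 285 FPKM (SD, n = 4) to 5.96 ± 3.35 FPKM (SD, n = 2). In bulk tissue, fewer cells of a type and less RNA per cell cannot be told apart.

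The same gap held for the other leading members. Acta2, the vascular and visceral smooth muscle actin, was 12.3 and 7.11 FPKM against 772, 152, 413 and 195 FPKM (-4.91 ± 0.61; adjusted p = 0.00153). Myh11, the smooth muscle myosin heavy chain, was 6.68 and 2.32 FPKM against 402, 78.5, 171 and 92.4 FPKM (-4.90 ± 0.68; adjusted p = 0.00257). Myl9 (chromosome 2, 156775420 to 156781658), its regulatory light chain, was 6.77 and 3.93 FPKM against 389, 83.7, 216 and 107 FPKM (-4.75 ± 0.62; adjusted p = 0.00178). In each of these genes the 2 and the 4 libraries were separate. Tagln, an actin-binding protein, fell by 4.80 on the log2 scale, Cnn1, the calponin that restrains actomyosin, by 4.79 and Mylk, the kinase that starts contraction, by 3.65. Without Lgr5-Cdx2-Apc replicate 2 the calls of Tagln and Mylk were lost (adjusted p of 0.0527 and 0.0736).

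Of the 24 smooth muscle genes on the list, all tested, 12 were lower and 0 higher, at a median log2 difference of -1.88 against 0.05 for all genes. The 12 were Acta2, Actg2, Myh11, Tagln, Cnn1, Myl9, Mylk, Lmod1, Synpo2, Synm, Des and Pgm5. Des, the intermediate filament desmin, also belongs to the skeletal muscle list and was 27.6 and 29.7 FPKM against 262, 71.6, 176 and 70.0 FPKM, a call that ended without any 1 of 9 libraries. The list median was -3.0, -1.27, -2.29 and -1.15 against Lgr5-Apc replicates 1 to 4, so the direction held against each. The mean log2(FPKM + 1) of the list was 3.01 and 2.83 with both drivers and 4.63 to 6.68 in the other 10 libraries. Without Lgr5-Cdx2-Apc replicate 2 the count was 5.

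One leading member has a promoter sequence in the RefSeq table used (GRCm38.p6) that holds a CArG box, the element bound by serum response factor in muscle genes. It is shown because the smooth muscle genes moved together. The stretch lies at chr2:156775214-156775419 on the plus strand and the capitals mark the CArG box, which begins 161 bases before the RefSeq start. The stretch is printed only up to 44 bases short of that start, where the GENCODE gene begins, so the box stands 117 bases before its end.
Myl9: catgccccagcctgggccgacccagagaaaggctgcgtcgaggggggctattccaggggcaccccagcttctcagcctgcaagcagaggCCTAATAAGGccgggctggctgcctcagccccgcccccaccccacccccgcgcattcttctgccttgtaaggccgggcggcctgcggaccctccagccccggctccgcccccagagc
Of the 24 list genes 19 had an entry, and 2 of them, Myl9 and Ldb3, held a CArG box on either strand in the 250 bases before the start (10.5%). Ldb3 was not called. Of the 12 genes called lower 9 had an entry, and Myl9 alone held the box. Of all 27025 genes with an entry, 1.62% did. A match is a description of the letters, not a site. Actg2, Tagln and Myh11 had no entry.

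**Figure D3:**
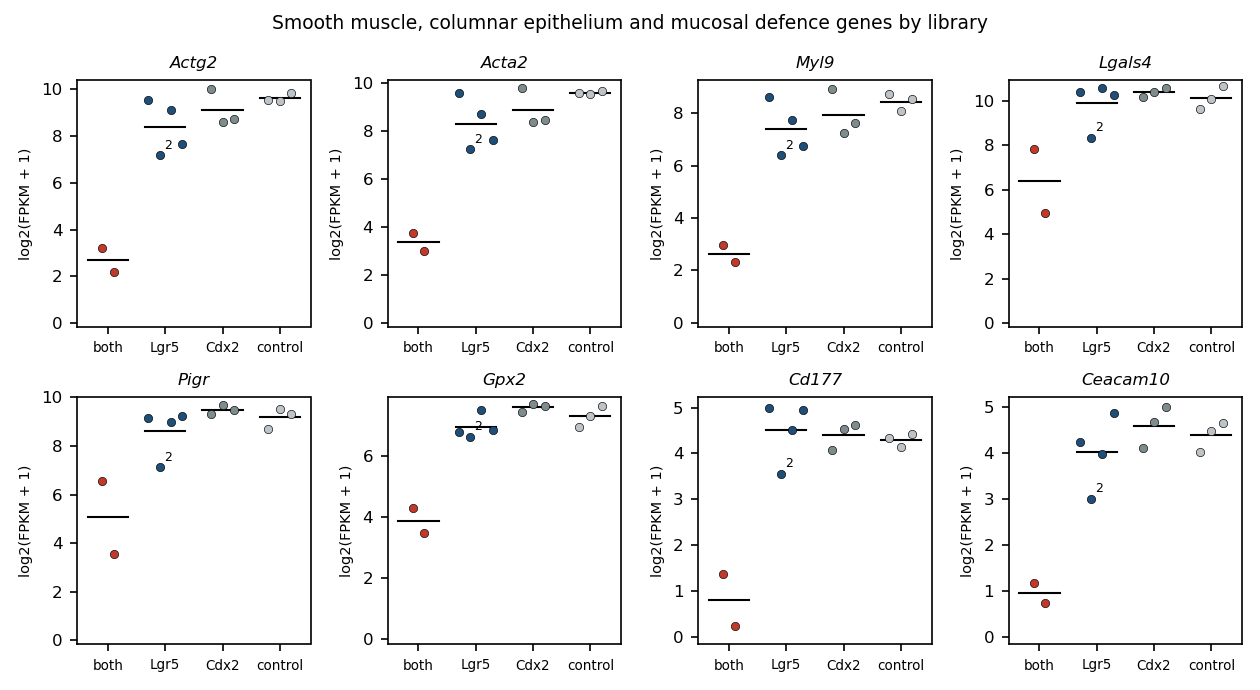
Log2(FPKM + 1) of 8 genes that were lower with both drivers, by library, with the 2 Lgr5-Cdx2-Apc libraries in red, the 4 Lgr5-Apc in blue (replicate 2 marked), and Cdx2-Apc and control in greys, and bars at the group means. Actg2, Acta2 and Myl9 show both red points far below all others, while for Lgals4 and Pigr the upper red point lies close to Lgr5-Apc replicate 2.

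Columnar epithelial markers were lower, but mostly through Lgr5-Cdx2-Apc replicate 2. Lgals4, a galectin of colon epithelium, was 229 and 30.2 FPKM with both drivers and 1329, 325, 1509 and 1238 FPKM in Lgr5-Apc replicates 1 to 4. Lgr5-Cdx2-Apc replicate 1 was close to Lgr5-Apc replicate 2, and replicate 2 was far below both. The log2 difference was -3.49 ± 0.79 (SE; limma adjusted p = 0.0253). Krt8 and Krt19, the keratins of simple epithelium, differed by -3.34 and -3.33, and the membrane mucin Muc13 by -3.29 (adjusted p of 0.0282, 0.0252 and 0.0333). The calls of Lgals4, Krt8 and Krt19 ended without Lgr5-Cdx2-Apc replicate 2 or Lgr5-Apc replicate 1 or 3, and that of Muc13 without any 1 of 8 libraries. Of 15 columnar markers 7 were lower and 0 higher: Krt8, Krt18, Krt19, Lgals4, Cldn7, Elf3 and Muc13. Epcam, whose adhesion protein covers columnar epithelium, was 175 and 65.4 FPKM against 577, 154, 572 and 637 FPKM and did not pass (adjusted p = 0.0543).

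The mean log2(FPKM + 1) of the columnar list was 6.60 and 4.05 with both drivers and 8.38, 6.44, 8.40 and 8.66 in Lgr5-Apc replicates 1 to 4. Columnar markers were thus present in all 6 libraries, as the rectum label asks, with Lgr5-Cdx2-Apc replicate 2 the lowest. The count of 7 was 15 without Lgr5-Apc replicate 2 and 11 without Lgr5-Cdx2-Apc replicate 1. It was 0 without Lgr5-Cdx2-Apc replicate 2, Lgr5-Apc replicate 1 or Lgr5-Apc replicate 3, and 3 or 4 without any single library of Lgr5-Apc replicate 4, Cdx2-Apc or control.

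Few genes of the differentiated colon cells passed the test. Of 25 colonocyte genes 2 were lower, where 4.31% of all genes were, and 0 higher, at a median of -1.80. Car2, a carbonic anhydrase of absorptive cells, was 59.3 and 27.0 FPKM against 353, 173, 328 and 354 FPKM, with no overlap (-2.83 ± 0.39; limma adjusted p = 0.00259). Hsd11b2, which inactivates glucocorticoids in colon epithelium, was 18.9 and 0.925 FPKM against 121, 23.2, 131 and 87.7 FPKM (-3.63 ± 0.91; adjusted p = 0.0344). Its upper value lay just under Lgr5-Apc replicate 2, and its call ended without any 1 of 8 libraries. Without Lgr5-Apc replicate 2 the count was 12 and without Lgr5-Cdx2-Apc replicate 1 it was 10. It was 1 without Lgr5-Cdx2-Apc replicate 2, Lgr5-Apc replicate 3, control replicate 2 or any 1 of the Cdx2-Apc libraries.

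Of 20 goblet cell genes 3 were lower, where 4.31% of all genes were. They were Spink4, a secreted protease inhibitor, at -3.50, St6galnac6, a sialyltransferase, at -3.30 and Creb3l1, a transcription factor, at -2.43. Spink4 was 44.0 and 17.9 FPKM against 332, 78.5, 458 and 982 FPKM. The calls ended without any 1 of 5 libraries for Spink4, 4 for St6galnac6 and 11 for Creb3l1. The count was 13 without Lgr5-Apc replicate 2, 0 without Lgr5-Cdx2-Apc replicate 2, Lgr5-Apc replicate 1 or Lgr5-Apc replicate 3, and 1 without Cdx2-Apc replicate 3 or Lgr5-Apc replicate 4. Of 18 posterior gut identity genes 3 were lower, among them the homeobox factor Cdx1 at -3.31 and the nuclear receptor Hnf4g at -2.27. Cdx1 was 18.5 and 2.15 FPKM against 112, 21.4, 106 and 134 FPKM, and its call ended without any 1 of 5 libraries and that of Hnf4g without any 1 of 10. The count of posterior gut genes was 9 without Lgr5-Apc replicate 2 or 4, 5 without Lgr5-Cdx2-Apc replicate 1, 0 without Lgr5-Cdx2-Apc replicate 2, and 1 when Cdx2-Apc replicate 3 or either of Lgr5-Apc replicates 1 and 3 was left out. None of 13 enteroendocrine genes was called by limma, with 3 lower at an unadjusted p below 0.05, while 5 were called lower without Lgr5-Apc replicate 2 and 1 without Lgr5-Apc replicate 1.

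Among genes of mucosal defence, 6 of 20 were lower. Gpx2, a glutathione peroxidase of gut epithelium, was 18.6 and 10.1 FPKM with both drivers and 109.9, 99.3, 182 and 116 FPKM in Lgr5-Apc replicates 1 to 4. Lgr5-Apc replicate 2 lay near replicate 1 (-3.08 ± 0.30 SE; limma adjusted p = 0.000425). Cd177, a surface glycoprotein best known from neutrophils, was 1.59 and 0.186 FPKM against 30.7, 10.8, 21.9 and 29.8 FPKM (-3.69 ± 0.41; adjusted p = 0.000849). Ceacam10, of the carcinoembryonic antigen family, was 1.27 and 0.659 FPKM against 18.0, 7.06, 14.8 and 28.5 FPKM (-3.07 ± 0.44; adjusted p = 0.00302). All 3 showed no overlap and kept the call without any single library of the 12.

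Pglyrp1, which binds bacterial peptidoglycan, was 21.4 and 1.16 FPKM against 145, 34.0, 154 and 142 FPKM (-3.89 ± 0.86; limma adjusted p = 0.0237). Pigr, the receptor that carries IgA into the lumen, was 93.2 and 10.8 FPKM against 576, 139, 501 and 606 FPKM (-3.57 ± 0.78; adjusted p = 0.0233). Both calls ended without Lgr5-Cdx2-Apc replicate 2 or Lgr5-Apc replicate 1 or 3. The sixth lower gene was Lypd8, and none of the 20 was higher. The list median was -1.65, -1.86, -3.13 and -0.51 against Lgr5-Apc replicates 1 to 4. The count was 3 without Lgr5-Cdx2-Apc replicate 2, Lgr5-Apc replicate 1 or Lgr5-Apc replicate 3. Among neutrophil genes Cd177 alone of 6 tested was lower, 2 without Lgr5-Apc replicate 4. S100a8, a defining neutrophil gene also made by keratinocytes, was 13.8 and 66.4 FPKM against 0.618, 31.9, 21.7 and 0 FPKM (adjusted p = 0.23).

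The largest increase of all genes tested was in an epidermal keratin. Krt2 (ENSMUSG00000064201.8, chromosome 15, 101810689 to 101818169), which encodes a type II keratin found above the basal layer of skin, was 641 and 2193 FPKM with both drivers and 0.0823, 62.7, 0.87 and 0 FPKM in Lgr5-Apc replicates 1 to 4. Lgr5-Apc replicate 2 was the highest of its group and still below both. The log2 difference was 8.46 ± 1.39 (SE; limma adjusted p = 0.00617), and 0.0937 without Lgr5-Cdx2-Apc replicate 2. Lgr5-Apc replicate 2 was also the highest of its group for other large increases. Clca3a2, of the calcium-activated chloride channel regulators, was 258 and 232 FPKM against 0.603, 50.3, 4.25 and 2.98 FPKM (5.25 ± 1.03; adjusted p = 0.0151). Serpina3b, a protease inhibitor, was 134 and 176 FPKM against 0.0195, 59.4, 3.51 and 0 FPKM (5.25 ± 1.38; adjusted p = 0.0412).

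Cyp2b19, a keratinocyte cytochrome P450, rose by 4.88 ± 1.30, the MHC class I-like Mill1 by 4.34 ± 0.94 and the sulfotransferase Sult5a1 by 4.28 ± 1.06 on the log2 scale (SE; limma adjusted p of 0.0427, 0.0229 and 0.0336). In these 3 genes Lgr5-Apc replicate 2 reached 44.9, 13.0 and 15.2 FPKM and replicates 1 and 4 at most 0.203 FPKM. The calls were fragile. Leaving out any 1 of 11 libraries ended that of Cyp2b19, any 1 of 10 that of Serpina3b, 6 that of Sult5a1, 4 that of Mill1 and 2 that of Clca3a2. Krt24, a keratin of squamous epithelium, and H2-M2, a non-classical class I gene, kept theirs. Krt24 was 10.7 and 26.9 FPKM against 0, 0.693, 0.133 and 0.0689 FPKM (3.92 ± 0.33; adjusted p = 0.000211), and it passed the filter only through the Lgr5-Cdx2-Apc libraries. H2-M2 was 24.9 and 14.2 FPKM against 0.125, 1.09, 1.07 and 0.207 FPKM (3.67 ± 0.31; adjusted p = 0.00022).

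Few general squamous and cornified genes were called, and the Lgr5-Apc libraries ranged from far below both Lgr5-Cdx2-Apc libraries to above them. The mean log2(FPKM + 1) of 26 basal and suprabasal genes was 7.86 and 8.92 with both drivers and 4.77, 9.29, 8.36 and 1.48 in Lgr5-Apc replicates 1 to 4. None of the 26 was higher by limma at an adjusted p below 0.05, with 1 higher at an unadjusted p below 0.05, and 2 were without Lgr5-Apc replicate 2. Krt15, a basal keratin, was 1474 and 584 FPKM against 22.8, 647, 114 and 0.0769 FPKM (4.64 ± 2.44 SE; adjusted p = 0.217). Dsg1a and Dsc3, desmosomal cadherins, differed by 4.55 ± 1.52 and 4.42 ± 2.09 and did not pass (adjusted p of 0.0768 and 0.178). The only call was lower: Klf5, a factor of both gut crypts and squamous epithelium, was 127 and 113 FPKM against 275, 232, 307 and 243 FPKM (-1.13 ± 0.20; adjusted p = 0.0105), and this call ended without Lgr5-Cdx2-Apc replicate 2.

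Of 34 cornified envelope genes, which build the dead outer layer of skin, 2 were higher, where 5.74% of all genes were. They were Krt2 and Tchh, or trichohyalin of the hair inner root sheath. Tchh was 37.9 and 8.68 FPKM against 0.293, 1.10, 0.522 and 0.0955 FPKM, with no overlap (3.73 ± 0.48 SE; limma adjusted p = 0.00171). Flg2, a filaggrin relative, was 226 and 134 FPKM against 0.305, 87.5, 11.0 and 0.0163 FPKM (adjusted p = 0.0615), and the late envelope gene Lce1l did not pass either (adjusted p = 0.0834). The count of higher genes was 13 without Lgr5-Apc replicate 2 and 1 without Lgr5-Cdx2-Apc replicate 2. A single gene was lower without Lgr5-Apc replicate 2 and 3 without Lgr5-Apc replicate 4. None of 20 sebaceous gland and skin lipid genes was called by limma, with 9 higher at an unadjusted p below 0.05, and 10 were called higher without Lgr5-Apc replicate 2.

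Of the hair follicle genes, 4 inner root sheath keratins were below 1 FPKM in every Lgr5-Apc library and present in both Lgr5-Cdx2-Apc libraries. The inner root sheath is the sleeve that guides the growing hair shaft, and its keratins Krt25, Krt27, Krt71 and Krt73 are made almost only there. Krt71 (ENSMUSG00000051879.4, chromosome 15, 101733949 to 101743109) was 57.1 and 15.3 FPKM with both drivers and 0, 0.0744, 0.823 and 0 FPKM in Lgr5-Apc replicates 1 to 4. Lgr5-Apc replicate 3 was the highest of its group and replicate 2 was near 0. The log2 difference was 4.70 ± 0.43 (SE; limma adjusted p = 0.000275). Krt27 was 17.9 and 6.73 FPKM against 0, 0, 0.243 and 0 FPKM (3.52 ± 0.29; adjusted p = 0.000211). Krt25 was 18.6 and 5.49 FPKM against 0, 0.037, 0.167 and 0 FPKM (3.43 ± 0.34; adjusted p = 0.000458), and Krt73 5.06 and 1.84 FPKM against 0, 0.194, 0.029 and 0 FPKM (1.98 ± 0.25; adjusted p = 0.00171). In all 4 genes Lgr5-Cdx2-Apc replicate 1 was the higher of its pair. All 4 were below 1 FPKM in every Lgr5-Apc library and passed the filter only through the Lgr5-Cdx2-Apc libraries, so their values are a description.

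Of 24 hair follicle genes measured, 21 were tested, 9 of them admitted only through the Lgr5-Cdx2-Apc libraries, and 13 were higher. These 9 had to be higher, so the count supports nothing by itself. The 13 included shaft keratins (Krt33b, Krt34, Krt35, Krt81 and Krt86) and the hair factors Hoxc13 and Lhx2. The mean log2(FPKM + 1) of the list was 4.12 and 2.84 with both drivers, 0.30, 1.75, 1.53 and 0.20 in Lgr5-Apc replicates 1 to 4, and at most 0.89 in the Cdx2-Apc and control libraries. Among all 42 keratin genes tested 15 were higher and 4 lower, with the lower ones Krt7, Krt8, Krt18 and Krt19 of simple epithelium. The 15 include Krt24 and the 9 hair follicle genes admitted only through the Lgr5-Cdx2-Apc libraries, all keratins. These had to be higher, so the count of 15 is a description. Of the 42 keratins 20 lie on chromosome 11 and 22 on chromosome 15. Counts for one keratin may include reads of close relatives.

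Keratin-associated proteins, the cysteine-rich or glycine-rich matrix that embeds hair keratin filaments, were present almost only with both drivers. This family was singled out after its values were seen. Krtap7-1 (ENSMUSG00000056706.3, chromosome 16, 89507703 to 89508323) was 107 and 13.6 FPKM with both drivers and listed at 0 in Lgr5-Apc replicates 1, 2 and 4, with 3.85 FPKM in replicate 3 (4.74 ± 0.78 SE; limma adjusted p = 0.00593). Krtap19-2 was 19.3 and 7.48 FPKM, Krtap19-3 10.4 and 4.91, Krtap19-4 19.8 and 8.57 and Krtap19-5 5.75 and 5.76 FPKM, and all 4 were listed at 0 in every Lgr5-Apc library (adjusted p of 0.000178, 0.000178, 0.000178 and 1.74e-05). Of 54 family members measured, 34 were tested, and 31 were higher and 0 lower. Of the 34, 19 passed the filter only through the Lgr5-Cdx2-Apc libraries and had to be higher. Krtap19-2, Krtap19-3, Krtap19-4 and Krtap19-5 are among these 19, so their values and the count are a description. The family mean of log2(FPKM + 1) was 2.67 and 1.51 with both drivers, 0.02, 0.08, 0.51 and 0.01 in Lgr5-Apc replicates 1 to 4 and at most 0.05 in the other 6 libraries. Lgr5-Apc replicate 3 carried the most of its group.

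The family lies in clusters, and 16 of 16 tested members on chromosome 16 and 11 of 14 on chromosome 11 were higher. Of these, 10 and 6 passed the filter only through the Lgr5-Cdx2-Apc libraries and had to be higher, so the counts are a description. Family members resemble each other, and how the authors' counting shared reads between copies is not given in the sources used here. Promoter stretches of 3 members are printed to show members of both clusters. They come from the RefSeq table (GRCm38.p6), all on the minus strand: Krtap3-1 at chr11:99566631-99566880, Krtap19-2 at chr16:88874270-88874519 and Krtap19-5 at chr16:88896458-88896699. Capitals mark TATAAA, the core of the TATA box.
Krtap3-1: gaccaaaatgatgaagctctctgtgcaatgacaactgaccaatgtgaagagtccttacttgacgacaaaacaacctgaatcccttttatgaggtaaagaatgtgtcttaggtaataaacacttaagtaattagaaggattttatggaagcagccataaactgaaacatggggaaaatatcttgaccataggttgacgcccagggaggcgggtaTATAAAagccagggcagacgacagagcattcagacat
Krtap19-5: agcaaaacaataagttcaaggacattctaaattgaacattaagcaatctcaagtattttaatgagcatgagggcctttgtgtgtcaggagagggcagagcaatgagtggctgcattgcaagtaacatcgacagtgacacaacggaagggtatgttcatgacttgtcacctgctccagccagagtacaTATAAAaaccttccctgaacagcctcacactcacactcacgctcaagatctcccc
Krtap19-2: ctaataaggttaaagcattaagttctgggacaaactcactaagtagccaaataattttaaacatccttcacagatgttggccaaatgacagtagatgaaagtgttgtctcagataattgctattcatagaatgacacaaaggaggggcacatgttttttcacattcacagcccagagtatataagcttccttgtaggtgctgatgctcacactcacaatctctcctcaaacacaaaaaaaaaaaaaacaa
The match began 37 bases before the RefSeq start in Krtap3-1 and 63 in Krtap19-5, whose printed stretch ends 8 bases short of that start, and these exact letters do not occur in the Krtap19-2 window. Krtap3-1 itself was 31.5 and 8.73 FPKM with both drivers against 0.294, 0.655, 1.99 and 0.398 FPKM (limma adjusted p = 0.00218). TATAAA stood on either strand within 250 bases before the start in 39 of the 49 family members with an entry (79.6%) and in 22 of the 29 called higher (75.9%). Of all 27025 genes with an entry, 14.3% held it. None of the 3 stretches printed here holds a CArG box.

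**Figure D4:**
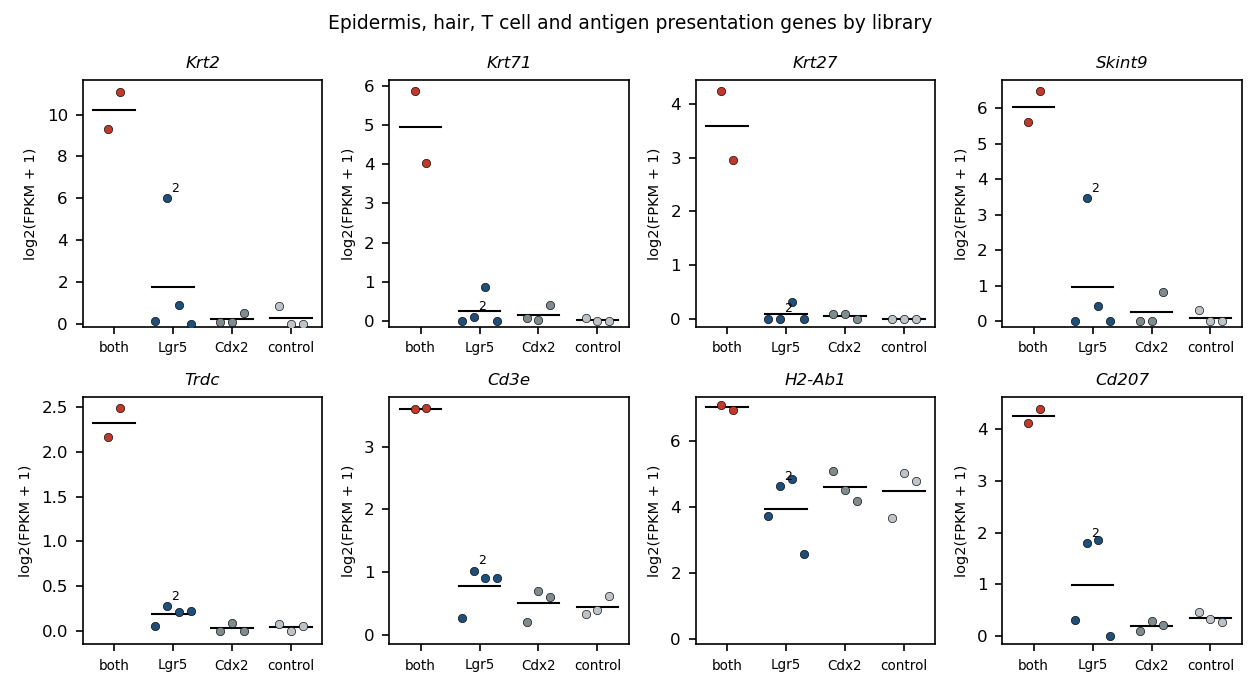
Log2(FPKM + 1) of 8 genes that were higher with both drivers, by library, with the 2 Lgr5-Cdx2-Apc libraries in red, the 4 Lgr5-Apc in blue (replicate 2 marked), and Cdx2-Apc and control in greys, and bars at the group means. Krt2 and Skint9 show Lgr5-Apc replicate 2 partway up, whereas Krt71, Krt27, Trdc and Cd3e show all 4 Lgr5-Apc libraries near the bottom.

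Of 11 Skint genes tested, all on chromosome 4, 9 were higher with both drivers and 0 lower. Skint proteins are immunoglobulin-family proteins of thymus and epidermis, and Skint1, their founding member, is needed for the gamma-delta T cells of mouse epidermis. Skint9 (chromosome 4, 112385969 to 112433985) was 48.1 and 88.1 FPKM with both drivers and 0, 10.1, 0.353 and 0 FPKM in Lgr5-Apc replicates 1 to 4 (5.07 ± 0.83 SE; limma adjusted p = 0.00596). Skint5 was 84.1 and 66.0 FPKM against 0, 11.2, 1.42 and 0 FPKM (5.02 ± 0.83; adjusted p = 0.00617). Lgr5-Apc replicate 2 was the highest of its group for both and lay below both Lgr5-Cdx2-Apc libraries. Both calls ended without Lgr5-Cdx2-Apc replicate 2 (adjusted p of 0.0883 and 0.0583).

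The T cell genes themselves were low in every Lgr5-Apc library. Trdc (ENSMUSG00000104876.1, chromosome 14, 54142851 to 54148868), the constant region of the delta receptor chain, was 3.49 and 4.61 FPKM against 0.0329, 0.205, 0.153 and 0.163 FPKM (2.14 ± 0.16 SE; limma adjusted p = 0.000178). Tcrg-C1, a gamma chain constant region, was 4.98 and 6.98 FPKM against 0.0574, 0.972, 0.862 and 0.834 FPKM (2.08 ± 0.29; adjusted p = 0.00262). Cd3e (chromosome 9, 44998740 to 45009627), a signalling chain of all T cell receptors, was 11.1 and 11.3 FPKM against 0.197, 1.03, 0.872 and 0.874 FPKM (2.84 ± 0.24; adjusted p = 0.00022). Cd247, the zeta chain, and Nkg7, a cytotoxic granule protein, rose by 2.06 ± 0.19 and 2.80 ± 0.26 (adjusted p of 0.000261 and 0.00028). The calls of these 5 genes held without any single library. All but Cd3e were below 1 FPKM in every Lgr5-Apc library and passed the filter only through the Lgr5-Cdx2-Apc libraries, so they had to be higher.

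Of 11 tested genes of the Skint and skin gamma-delta list 9 were higher, 4 without Lgr5-Cdx2-Apc replicate 1 and 3 without replicate 2. Of 20 T and NK cell genes 13 were tested, 9 of them only through the Lgr5-Cdx2-Apc libraries, and 11 were higher, these 9 included. Relative to Lgr5-Apc replicates 1 to 4 the T and NK cell median was 1.83, 1.49, 1.61 and 1.5, so replicate 2 lay about as far as replicates 3 and 4. The squamous list median, by contrast, was 4.52, -0.45, 0.31 and 7.26. None of 6 tested B and plasma cell genes was called by limma, with 0 at an unadjusted p below 0.05, and Xbp1, a plasma cell and secretory factor, was 55.5 and 58.5 FPKM against 59.7, 61.1, 64.0 and 104 FPKM (adjusted p = 0.375).

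All 8 tested genes of MHC class II antigen presentation were higher. H2-Ab1 (ENSMUSG00000073421.6, chromosome 17, 34257689 to 34269419), a class II beta chain that shows peptides to CD4 T cells, was 135 and 122 FPKM with both drivers and 12.3, 23.6, 27.8 and 4.90 FPKM in Lgr5-Apc replicates 1 to 4 (3.08 ± 0.59 SE; limma adjusted p = 0.014). Ciita, the master activator of class II genes, was 4.63 and 3.62 FPKM against 0.479, 0.579, 0.74 and 0.0893 FPKM (1.82 ± 0.22; adjusted p = 0.00143). H2-DMa, a chain of the peptide loader, was 16.2 and 16.2 FPKM against 2.31, 3.08, 3.06 and 1.03 FPKM (2.40 ± 0.33; adjusted p = 0.00238). Of 10 class II genes 8 were tested, 2 (Ciita and H2-DMb2) only through the Lgr5-Cdx2-Apc libraries, and 8 were higher: Ciita, Cd74, H2-Aa, H2-Ab1, H2-Eb1, H2-DMa, H2-DMb1 and H2-DMb2. The count was 2 without either Lgr5-Cdx2-Apc library and 5 without Lgr5-Apc replicate 1, and H2-Ab1 lost its call without either Lgr5-Cdx2-Apc library. The list median was 2.65, 2.24, 2.01 and 3.57 against Lgr5-Apc replicates 1 to 4.

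Cd207, the langerin of epidermal Langerhans cells, was 16.4 and 20.1 FPKM against 0.239, 2.47, 2.64 and 0 FPKM, with no overlap (3.27 ± 0.48 SE; limma adjusted p = 0.00346). Aif1, Itgax and Adgre1, genes of macrophages and dendritic cells, rose by 1.17, 1.5 and 1.41 on the log2 scale (adjusted p of 0.00507, 0.0142 and 0.0388). Of 16 macrophage and dendritic cell genes tested 5 were higher, the fifth being the growth factor receptor Csf1r, and Aif1 passed the filter only through the Lgr5-Cdx2-Apc libraries. The Itgax call ended without either Lgr5-Cdx2-Apc library and that of Adgre1 without any 1 of 9 libraries. The count of 5 was 2 without either Lgr5-Cdx2-Apc library and 3 without Lgr5-Apc replicate 1, 3 or 4, any 1 of the Cdx2-Apc libraries or control replicate 3. It was 0 in the lower direction, but 2 without Lgr5-Apc replicate 2. Mcpt4, a mast cell chymase, was 3.19 and 9.44 FPKM against 0, 0.532, 0.264 and 0 FPKM (2.49 ± 0.33; adjusted p = 0.002), and the tryptase Tpsb2 rose by 1.18. These were 2 of 4 mast cell genes tested, and 1 without Lgr5-Cdx2-Apc replicate 2. Both passed the filter only through the Lgr5-Cdx2-Apc libraries and had to be higher.

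Of 15 cytokine and chemokine genes 8 were higher and 1 lower. Tnf, Il1b and Cxcl2 among the 8 passed the filter only through the Lgr5-Cdx2-Apc libraries and had to be higher. Tnf was 2.34 and 2.06 FPKM against 0.303, 0.244, 0.273 and 0.581 FPKM (1.25 ± 0.18 SE; limma adjusted p = 0.00262). Il1b, Cxcl2 and Cxcl16, an interleukin and chemokines for neutrophils and T cells, rose by 0.93, 1.31 and 1.61 (adjusted p of 0.00591, 0.00223 and 0.0144). The others were Ccl27a, Cxcl10, Cxcl14 and Il1a, and the lower gene was Ccl28, a chemokine of mucosal epithelium. The count of 8 was 3 without either Lgr5-Cdx2-Apc library and 4 without Lgr5-Apc replicate 1, 3 or 4. Cxcl16 lost its call without either Lgr5-Cdx2-Apc library. Ccl28 lost its call without Lgr5-Cdx2-Apc replicate 2, Lgr5-Apc replicate 1 or Lgr5-Apc replicate 3. None of 19 interferon response genes was called by limma, with 4 higher and 1 lower at an unadjusted p below 0.05. In the fits without a library, 4 were lower without Lgr5-Apc replicate 2 and 1 was higher without Lgr5-Apc replicate 4.

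Of 10 tuft cell genes tested 5 were higher and 0 lower, and 4 of them act in lipid mediator synthesis. Alox5, the 5-lipoxygenase that begins leukotriene synthesis, was 7.79 and 5.88 FPKM with both drivers and 0.45, 1.20, 1.04 and 1.04 FPKM in Lgr5-Apc replicates 1 to 4 (2.03 ± 0.22 SE; limma adjusted p = 0.000715). Its partner Alox5ap was 10.6 and 6.87 FPKM against 1.78, 1.17, 1.76 and 0.334 FPKM (2.14 ± 0.36; adjusted p = 0.00675). Ptgs1, cyclooxygenase 1, was 56.1 and 63.0 FPKM against 12.5, 18.0, 11.0 and 5.42 FPKM (2.35 ± 0.40; adjusted p = 0.0068), and Hpgds, a prostaglandin D synthase, rose by 1.24 ± 0.29 (adjusted p = 0.0283). The groups did not overlap in these 4 genes. The call of Alox5ap ended without Lgr5-Cdx2-Apc replicate 1, that of Ptgs1 without replicate 2 and that of Hpgds without either.

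Pou2f3, a factor of tuft cells that keratinocytes also make, was the fifth. The members that define tuft cells more narrowly did not pass. Dclk1 was 5.67 and 6.41 FPKM against 1.95, 1.56, 1.15 and 11.6 FPKM (limma adjusted p = 0.354), and Trpm5, their taste-type ion channel, was 1.05 and 0.0589 FPKM against 0.104, 0, 0.106 and 5.09 FPKM (adjusted p = 0.883). Alox5, Alox5ap and Hpgds are also made by mast cells and macrophages, of whose listed genes 2 of 4 and 5 of 16 were higher, and the part of these cells was not tested. The count of 5 was 2 without either Lgr5-Cdx2-Apc library.

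**Figure D5:**
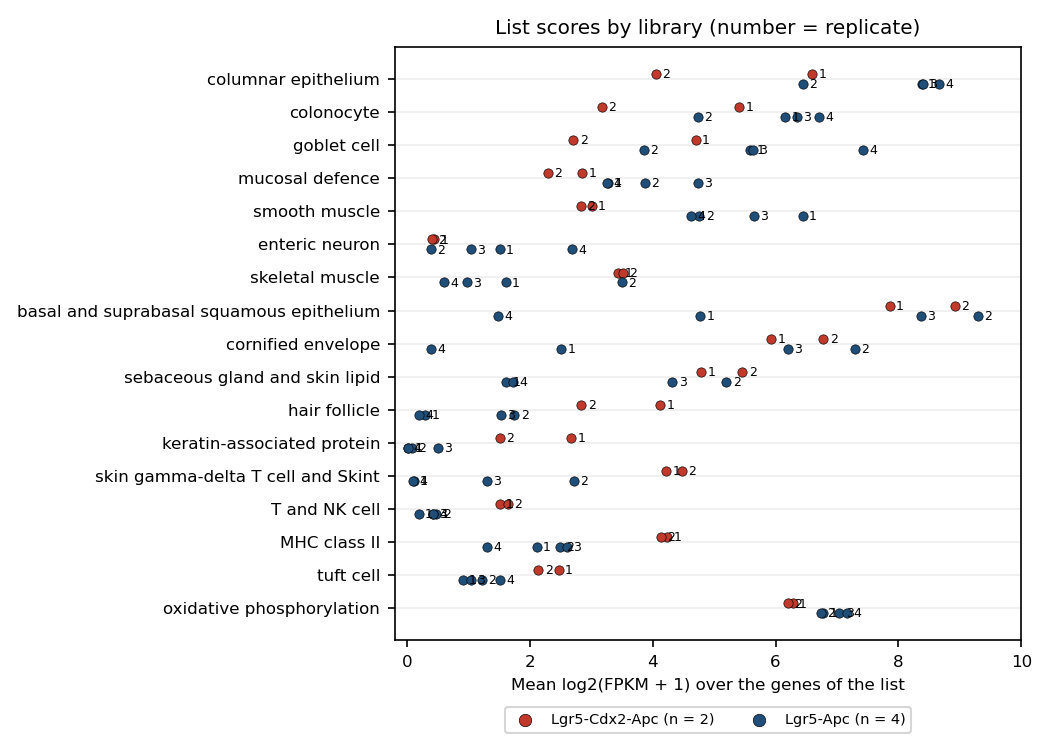
Mean log2(FPKM + 1) over the genes of each list (horizontal) for the 2 Lgr5-Cdx2-Apc libraries in red and the 4 Lgr5-Apc libraries in blue, with the replicate number beside each point. Columnar scores of 6.60 and 4.05 show how far the red pair is apart, and Lgr5-Apc replicate 2 lies beside the red points for skeletal muscle and squamous genes but not for smooth muscle or MHC class II.

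Some genes of Wnt signalling, the pathway that Apc restrains, passed the test. Of 20 Wnt target genes 4 were higher and 1 lower, where 5.74% of all genes were higher and 4.31% lower. The median log2 difference was 0.61 against 0.05 for all genes. Axin2, a feedback target, was 20.5 and 14.6 FPKM with both drivers and 6.87, 9.37, 5.85 and 11.7 FPKM in Lgr5-Apc replicates 1 to 4, with no overlap (1.00 ± 0.26 SE; limma adjusted p = 0.0399), but the call ended without any 1 of 9 libraries (adjusted p up to 0.202). Tcf7, a transcription factor of the pathway that T cells also make, was 4.53 and 5.54 FPKM against 1.02, 2.36, 2.17 and 1.97 FPKM (1.09 ± 0.22; adjusted p = 0.0155). Lgr6, a relative of Lgr5 that marks hair follicle and epidermal stem cells, was 16.3 and 23.9 FPKM against 0.0752, 4.80, 0.966 and 0.0401 FPKM (3.46 ± 0.61; adjusted p = 0.0086). Tnfrsf19, a receptor of hair follicle and crypt cells, was 56.0 and 57.6 FPKM against 3.08, 15.3, 4.57 and 1.86 FPKM (3.34 ± 0.65; adjusted p = 0.0141). Ephb2, the receptor that keeps crypt cells at the base, was 3.71 and 1.81 FPKM against 12.3, 5.20, 10.9 and 22.6 FPKM (-1.76 ± 0.45; adjusted p = 0.0359). The Tcf7 and Tnfrsf19 calls ended without either Lgr5-Cdx2-Apc library, that of Lgr6 without replicate 2 of that group and that of Ephb2 without any 1 of 8 libraries.

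Of the Wnt target genes that did not pass, Myc, Ccnd1, Lef1, Rnf43 and Nkd1, named after their values were seen, had log2 differences of 0.62, 0.26, 0.37, -0.12 and -0.90 (limma adjusted p of 0.173 for Nkd1 to 0.736 for Rnf43). The Wnt count of 4 was 8 without Lgr5-Apc replicate 2, 1 without Lgr5-Cdx2-Apc replicate 1 and 0 without Lgr5-Cdx2-Apc replicate 2. The lower count was 0 without any 1 of 8 libraries, which are both Lgr5-Cdx2-Apc, all 3 Cdx2-Apc, Lgr5-Apc replicates 1 and 3 and control replicate 2, and 2 without Lgr5-Apc replicate 2. Of 14 intestinal stem cell genes 2 were higher, Axin2 and Tnfrsf19. That count was 4 without Lgr5-Apc replicate 2, 0 without either Lgr5-Cdx2-Apc library, 3 without Lgr5-Apc replicate 4, 2 without control replicate 2, and 1 without any other single library. The markers of skin and T cells that moved with Lgr6, Tnfrsf19 and Tcf7 are given above, and their part in these values was not tested.

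Some genes of energy metabolism were lower by small amounts. Of 24 nuclear oxidative phosphorylation genes 8 were lower and 0 higher, and 21 lay below all of the other 10 libraries, against 10.7% of all genes tested. Ndufb8, a complex I subunit, was 76.0 and 79.7 FPKM with both drivers and 135, 114, 158 and 146 FPKM in Lgr5-Apc replicates 1 to 4, with no overlap (-0.81 ± 0.20 SE; limma adjusted p = 0.0343). Atp5c1, of the ATP synthase, and Ndufv1, of complex I, differed by -0.77 and -0.71 (adjusted p of 0.0283 and 0.033). These calls ended without any 1 of 8 libraries for Ndufb8, 4 for Atp5c1 and 6 for Ndufv1. The count was 19 lower and 1 higher without Lgr5-Apc replicate 2. It was 0 without Lgr5-Cdx2-Apc replicate 1, Lgr5-Cdx2-Apc replicate 2 or Lgr5-Apc replicate 3, 3 without Lgr5-Apc replicate 1 or Cdx2-Apc replicate 1, 2 without Lgr5-Apc replicate 4 or Cdx2-Apc replicate 2, 1 without Cdx2-Apc replicate 3 and 4 without control replicate 2.

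Of 21 glycolysis and hypoxia genes 5 were lower, where 4.31% of all genes were. They were Gpi1, Pfkl, Tpi1, Eno1 and Ldha, which act in sequence from glucose phosphate to lactate. Gpi1 was 51.9 and 51.5 FPKM against 102, 99.2, 120.3 and 121 FPKM (-1.08 ± 0.17 SE; limma adjusted p = 0.00478). Lgr5-Apc replicate 2 lay with its group here, and the call held without any single library. Ldha, lactate dehydrogenase, was 176 and 212 FPKM against 357, 352, 446 and 318 FPKM (-0.92 ± 0.23; adjusted p = 0.0342), a call that ended without any 1 of 6 libraries. The count was 2 and 1 without Lgr5-Cdx2-Apc replicates 1 and 2, and 3 when Cdx2-Apc replicate 3 or either of Lgr5-Apc replicates 1 and 3 was left out. Without Lgr5-Apc replicate 2, 2 members were higher.

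Of 25 cell cycle genes 5 were lower, where 4.31% of all genes were. All 5 are genes of mitosis: Ccnb2, Aurka, Aurkb, Plk1 and Birc5. Birc5, or survivin, was 6.03 and 8.22 FPKM against 13.0, 14.2, 19.5 and 19.1 FPKM (-1.10 ± 0.22 SE; limma adjusted p = 0.0152). Ccnb2, a mitotic cyclin, was 4.70 and 7.14 FPKM against 9.93, 12.4, 18.1 and 16.8 FPKM (-1.13 ± 0.24; adjusted p = 0.0205). The groups did not overlap in either. The count was 0 without either Lgr5-Cdx2-Apc library, 2 without Lgr5-Apc replicate 3 and 3 without Lgr5-Apc replicate 4, Cdx2-Apc replicates 2 or 3 or any 1 of the controls. Without Lgr5-Apc replicate 2 the list had 6 lower and 5 higher members.

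Genes linked to invasion and to a fetal-like state gave few calls. Mmp9, the gelatinase that opens basement membrane, was 9.35 and 5.56 FPKM with both drivers and 0.155, 0.39, 0.233 and 0.174 FPKM in Lgr5-Apc replicates 1 to 4, with no overlap (2.74 ± 0.24 SE; limma adjusted p = 0.00022). Spp1, or osteopontin, was 2.40 and 2.25 FPKM against 0.158, 0.434, 0.119 and 0.179 FPKM (1.45 ± 0.36; adjusted p = 0.035). Plaur, the urokinase receptor, was lower, at 1.36 and 1.14 FPKM against 3.83, 2.81, 3.46 and 4.52 FPKM (-1.04 ± 0.23; adjusted p = 0.0233). These were the 2 higher and 1 lower of 20 genes of epithelial to mesenchymal transition and invasion. Of all genes tested 5.74% were higher and 4.31% lower. Mmp9 and Spp1 passed the filter only through the Lgr5-Cdx2-Apc libraries and had to be higher. The Spp1 call ended without any 1 of 6 libraries and that of Plaur without any 1 of 4. The counts were 6 and 3 without Lgr5-Apc replicate 2. The higher count was 1 without any 1 of either Lgr5-Cdx2-Apc library, Cdx2-Apc replicate 2 and Lgr5-Apc replicates 1, 3 and 4. The lower count was 0 without either Lgr5-Cdx2-Apc library, Lgr5-Apc replicate 1 or Lgr5-Apc replicate 3, and 2 without Lgr5-Apc replicate 4. Of 15 fetal-like and regenerative genes Spp1 was higher and Krt7 and Reg4 were lower, at -1.57 and -3.13, and each of the 3 lost its call in at least 1 of the 12 fits without a library.

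Skeletal muscle genes were at the level of both Lgr5-Cdx2-Apc libraries in 1 Lgr5-Apc library. The mean log2(FPKM + 1) of the list was 3.44 and 3.52 with both drivers and 1.61, 3.50, 0.98 and 0.60 in Lgr5-Apc replicates 1 to 4. Of 21 tested genes 3 were higher: the giant thin-filament protein Neb, the slow troponin Tnnt1 and the calcium channel Cacna1s. Tnnt1 passed the filter only through the Lgr5-Cdx2-Apc libraries and had to be higher. Neb was 10 and 14.0 FPKM against 0.708, 8.54, 0.125 and 0.0555 FPKM (2.62 ± 0.71 SE; limma adjusted p = 0.0449), a call that ended without any 1 of 11 libraries. The only lower member was Des. Without Lgr5-Apc replicate 2, 19 were higher and 2 lower. Without any other single library the higher count was 0 or 1, and the lower count was 0 without any single library but Lgr5-Apc replicates 2 and 4 and Cdx2-Apc replicate 1.

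Enteric neuron genes were low in both Lgr5-Cdx2-Apc libraries and in Lgr5-Apc replicate 2, with list means of 0.44 and 0.41 against 1.51, 0.39, 1.04 and 2.69. None of 13 was called by limma, with 5 lower at an unadjusted p below 0.05, and 6 were called lower without Lgr5-Apc replicate 2. Of 22 fibroblast and matrix genes 1 was higher, where 5.74% of all genes were. It was Thy1, a surface glycoprotein of fibroblasts and T cells, at 31.8 and 45.4 FPKM against 7.63, 11.5, 12.3 and 6.06 FPKM (1.96 ± 0.32 SE; limma adjusted p = 0.00593). This call ended without Lgr5-Cdx2-Apc replicate 2. None of 11 adipocyte and 13 endothelial genes was called by limma, with 0 at an unadjusted p below 0.05, and 2 adipocyte genes were higher without Lgr5-Apc replicate 2. Of 3 pelvic gland and urothelial genes tested the uroplakin Upk1a was lower (-1.52 ± 0.37; adjusted p = 0.0328), a call lost without any 1 of 7 libraries. None of 15 genes of RNA quality and dissociation stress was called by limma, with 3 higher at an unadjusted p below 0.05, and 2 were higher without Lgr5-Apc replicate 2.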

How the data were processed

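The series holds 12 RNA-seq libraries of mouse rectum, 6 of which are compared here. Per the labels' protocols, RNA was extracted with an RNeasy Plus kit with DNase treatment and made into NEBNext Ultra II Directional libraries. Per the submitters' processing notes, STAR, Cufflinks and Cuffdiff were used with mm10; versions and annotation are not given in the sources used here. The authors deposited 1 table of 27831 lines whose values are FPKM by their range. Of these lines 25 carried date-like names and were kept apart, and 44 other names stood on 90 lines, of which the one with the highest mean stayed per name (27785 genes). Positions came from GENCODE M21 on GRCm38, where 96.7% of symbols matched.

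Values were taken as log2(FPKM + 1), which understates the change of low genes. In limma 3.58.1 (R 4.3.3), 1 model over the 12 libraries had a term for each group, with trended empirical Bayes moderation, and p-values were two-sided and adjusted over the 16349 genes. The procedure was tested on simulated data. The comparison and the 39 gene lists (1 of them singled out after its values were seen) were chosen with earlier results of these data known, and lists were described by counts and medians with no test of their own.

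Named genes were the 10 called genes of largest change in each direction whose groups did not overlap and whose higher group averaged 5 FPKM or more, the 5 per direction with the largest gap to the other 10 libraries, Apc, Lgr5 and Cdx2, and the 2 to 4 members of smallest p per list. Unnamed models, small RNAs and receptor segments were skipped, and a gene outside this rule was chosen after its values were seen. Alternatives were other pseudocounts, filters, scalings, weights and moderation, a fit of the 6 libraries, a replicate block, a minimum fold and leaving out libraries. Some genes that the rule names are not reported here.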

Additional observations from a re-analysis of the deposited data

Results flagged for a closer look

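Among 39 list scores and 26 genes examined in the 4 Lgr5-Apc libraries, 9 had a library far from the other 3. The rule used flags about 1 in 20 by chance where values are normally distributed. Some items were chosen for their values and some share genes, so the 9 cannot be set against that rate. Lgr5-Apc replicate 2 was the far one for the columnar epithelium score (6.44, against 8.38 to 8.66), Pglyrp1 (34.0 FPKM, against 142 to 154), Krt2 (62.7 FPKM, against at most 0.87) and Skint9 (10.1 FPKM, against at most 0.353). Replicate 3 was the far one for the keratin-associated protein score (0.51, against at most 0.08), Krtap7-1 (3.85 FPKM, listed at 0 in the others) and Krt71 (0.823 FPKM, against at most 0.0744). Replicate 4 was the far one for Cdx2 (151 FPKM, against at most 0.858) and for the score of the driver and target genes, which include Cdx2 (5.32, against 4.11 to 4.29).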

How the results depend on the processing

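None of the 97 named genes that were called reversed its direction under the alternatives run, while Cdx2, which was not called, ran from -1.05 to 2.09 without a single library. For the comparison of Lgr5-Cdx2-Apc against Lgr5-Apc, the 1643 genes called (939 higher, 704 lower) became 556 (165 higher, 391 lower) with a mean of at least 5 FPKM, 65 (59 and 6) with only the 6 libraries, 3743 (1902 and 1841) with library quality weights, 4868 (2847 and 2021) without Lgr5-Apc replicates 2 and 3, and 57 (49 and 8) with a minimum fold of 2. With a pseudocount of 0.1 FPKM, 509 were higher and 681 lower, so that lower calls then outnumbered higher ones, as they did with the mean of at least 5 FPKM. The cause of these shifts was not tested. The fit of 6 libraries has fewer samples, and the mean filter fewer genes. The main fit also takes spread from Cdx2-Apc and control, whose Spearman correlations within group were 0.95 to 0.966 and 0.91 to 0.97. Within Lgr5-Apc they were 0.71 to 0.906, and the 2 Lgr5-Cdx2-Apc libraries had 0.91. The p-values of the main fit thus rest partly on the spread of groups not compared. Leaving out each library gave 320 to 4640 genes called, 276 to 2518 higher and 44 to 2122 lower, with the highest without Lgr5-Apc replicate 2 and the lowest without Lgr5-Cdx2-Apc replicate 2. The other pseudocount, no filter, a filter over 12 libraries, the 2 scalings and robust moderation kept each count within 1.5 times.

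Same-numbered libraries of the compared groups deviated with correlations of 0.24 and 0.44, but Lgr5-Cdx2-Apc replicate 1 also had 0.37 with Lgr5-Apc replicate 4, and the labels give no shared origin. A fit with the replicate block called 691 genes, 394 higher and 297 lower. Of the 97 named genes that were called, 37 kept the call without any single library of the 12, 59 kept it under the replicate block and 14 with only the 6 libraries. Depth is unknown, so no limit of detection could be given for genes listed at 0.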
